A study of Mus musculus with 2 samples.

Results

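Pou5f1, Sox2, Sall4, Utf1 and Zfp42 are 5 genes of the transcription network that keeps mouse embryonic stem cells undifferentiated. They were taken by name, as 5 of the 21536 protein-coding genes analysed on the mm10 build, and all 5 were found there. Trimethylation of histone H3 at lysine 4 (H3K4me3) was mapped by chromatin immunoprecipitation and sequencing (ChIP-seq) in E14TG2a.4, a male 129/Ola embryonic stem cell line labelled as embryonic with an age of 3.5 days. Both biological replicates were untreated as far as the labels say, belonged to 1 group and shared a line and a donor, so no contrast between conditions existed and no test was made. The data were the authors' peak lists, and the number of reads behind them is unknown.

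H3K4me3 is laid down at promoters by the SET1 and MLL methyltransferase complexes, which are drawn to unmethylated CpG islands and to transcribed starts. It marks active promoters and, in stem cells, also many poised ones, so a peak does not measure transcription. In stem cells unusually wide H3K4me3 domains are known from many genes of cell identity. Pou5f1 encodes Oct4, a POU-domain factor that binds the octamer element, and Sox2 encodes the HMG-box partner that binds beside it on composite elements. Sall4 encodes a zinc finger factor of the Spalt family that helps to maintain Pou5f1 expression. Utf1 encodes a chromatin-bound factor of undifferentiated cells and is a known target of Oct4 and Sox2. Zfp42 encodes Rex1, a zinc finger protein related to Yy1 and a widely used marker of the naive state.

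The start-proximal sequences are shown because the mm10 peaks were measured against the members' 5′ ends and because the members differed in CpG content there. The RefSeq promoter table (GRCm38.p6, the mm10 assembly) held 4 of the 5 members, and the 250 bases before each gene's first start read 5′ to 3′ as follows, with capitals for motif matches on either strand. The motifs were the GC box GGGCGG, the pentamer CCAAT known from many promoters, the nuclear receptor element AGGTCA, the octamer ATGCAAAT and its first 7 bases alone.
Pou5f1, chr17:35505782-35506031, plus strand: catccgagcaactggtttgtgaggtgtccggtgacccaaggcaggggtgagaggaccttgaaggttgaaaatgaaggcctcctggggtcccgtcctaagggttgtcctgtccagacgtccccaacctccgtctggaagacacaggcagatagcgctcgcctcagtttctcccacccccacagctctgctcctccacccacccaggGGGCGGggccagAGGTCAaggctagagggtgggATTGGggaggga
Sox2, chr3:34649745-34649994, plus strand: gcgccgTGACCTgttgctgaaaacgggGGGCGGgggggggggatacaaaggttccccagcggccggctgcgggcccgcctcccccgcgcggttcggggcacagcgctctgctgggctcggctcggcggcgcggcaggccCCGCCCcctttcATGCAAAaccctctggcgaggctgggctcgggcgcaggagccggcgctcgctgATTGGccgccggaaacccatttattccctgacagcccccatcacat
Utf1, chr7:139943606-139943855, plus strand: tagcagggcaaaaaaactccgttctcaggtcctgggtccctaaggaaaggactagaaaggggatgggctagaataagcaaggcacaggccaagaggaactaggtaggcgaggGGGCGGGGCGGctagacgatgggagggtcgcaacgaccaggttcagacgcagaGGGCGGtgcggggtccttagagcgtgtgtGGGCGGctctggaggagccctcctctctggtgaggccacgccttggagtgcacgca
Zfp42, chr8:43307010-43307259, minus strand: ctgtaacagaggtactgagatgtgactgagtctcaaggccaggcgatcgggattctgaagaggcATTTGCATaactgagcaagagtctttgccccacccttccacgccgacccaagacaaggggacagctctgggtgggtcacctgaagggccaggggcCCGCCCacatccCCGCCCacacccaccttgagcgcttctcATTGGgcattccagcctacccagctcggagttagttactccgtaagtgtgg
The octamer was found before Zfp42, at positions -186 to -179 on the opposite strand, counted with -1 as the base before the start. It was held by 1.6 percent of the 32851 RefSeq promoter windows of the same length. The shorter ATGCAAA, which lies inside the octamer at Zfp42, also stood before Sox2 at -99 to -93, and 4.12 percent of all windows held it. The AGGTCA element was at -33 to -28 before Pou5f1 and, reversed, at -244 to -239 before Sox2, against 14 percent of all windows. The GC box was the most repeated of these motifs. It occurred 1 time before Pou5f1, 2 times before Sox2 and Zfp42 and 4 times before Utf1, where the first 2 copies overlapped by 1 base, and 32.7 percent of all windows held it. CCAAT was present before Pou5f1, Sox2 and Zfp42 and in 33.8 percent of all windows. ACAAAG, the core that Sox factors read, stood 1 time before Sox2, left in lower case, and in 16.5 percent of all windows. TATAAA was in none of the 4 sequences and in 12.4 percent of all windows. The number of CpG dinucleotides in these 250 bases was 8 before Pou5f1, 27 before Sox2, 14 before Utf1 and 9 before Zfp42, against a median of 6. These matches are descriptions of the letters and not of bound sites.

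All 5 members carried an H3K4me3 peak within 1 kb of their 5′ end in the authors' replicated list, as did 66.6 percent of all protein-coding genes analysed. All 5 also did so in the list of replicate 1 (66.9 percent of all genes) and of replicate 2 (66.8 percent of all genes). With q-values under 1e-05 the share of all genes was 66.2 percent and with any RefSeq start 69.5 percent, and 5 of 5 members were marked under both. A promoter peak was thus common to most genes, and the values below describe the extent and strength of the marked region. Signal is the deposited signal value of a peak, read here as a fold enrichment from the file format, and a domain is a run of peaks with gaps under 1 kb. In the replicated list the promoter signal is that of the pooled data, which over 14200 genes was 1.13 times the mean of the replicates at the median, so signals were compared only within a list.

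Pou5f1 (chr17:35506032-35510777, plus strand) had the highest promoter signal of the 5. It was 61.9 in replicate 1 and 60.1 in replicate 2, a mean of 61.0 ± 1.28 (SD, n = 2). The replicates lay within 1.03 times of each other, where the median gene differed by 1.08 times. In the replicated list the signal was 69.4, rank 963 of 14343 marked genes. One peak of 6521 bp held the start, its upstream flank and nearly the whole gene, from chr17:35504052-35510572, and its summit lay 382 bp into the gene. The joined domain measured 10355 bp there, 10276 bp in replicate 1 and 11321 bp in replicate 2. It reached 4623 bp upstream and 5731 bp downstream of the start and so covered 100 percent of the 4746 bp gene body. It was the narrowest of the 5 domains, and still stood at the 97.5th percentile of marked genes by width.

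Sox2 (chr3:34649995-34652461, plus strand), a gene with a single exon, lay in the widest joined domain of the 5 on mm10. Without joining, its lead over the promoter peak of Sall4 was small, 10475 bp against 9797 bp in the replicated list. The domain spanned 27074 bp in the replicated list, from chr3:34646450-34673523, with 27613 bp in replicate 1 and 25583 bp in replicate 2, a mean of 26598 ± 1435 bp (SD, n = 2). By width it ranked 10 of 14343 in the replicated list, 6 in replicate 1 and 7 in replicate 2. The domain was lopsided. It reached 3545 bp upstream of the start and 23528 bp downstream, although the gene itself is 2467 bp long. The promoter peak alone covered 10475 bp in the replicated list and 10211 bp in replicate 2, and it was split into 3 in replicate 1, where the first and strongest peak was 7875 bp wide. The summit lay 1266 bp downstream of the start. Its signal was 61.4 in replicate 1 and 55.4 in replicate 2 (58.4 ± 4.23, SD, n = 2) and 66.1 in the replicated list. A separate strong peak stood within the domain at +12.1 to +17.1 kb, with a signal of 20.7 in the replicated list, 16.9 in replicate 1 and 15.4 in replicate 2. Another, outside the domain at -8.32 to -6.06 kb, had 22.3 in the replicated list, 20.8 in replicate 1 and 14.8 in replicate 2. Neither covered the 5′ end of any gene in the mm10 gene table. On mm9, however, transcripts of the noncoding gene Sox2ot started 6.43 and 15.2 kb downstream of the Sox2 start. The mm10 domain spans both distances and its separate peak the second, so the part of each gene in this width cannot be told apart.

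Sall4 (chr2:168748332-168767201, minus strand) is the longest member at 18870 bp, and its domain stopped inside the gene. The promoter signal was 55.5 in replicate 1 and 54.4 in replicate 2 (54.98 ± 0.808, SD, n = 2), and 62.3 in the replicated list. The domain measured 16225 bp in the replicated list, 18820 bp in replicate 1 and 15602 bp in replicate 2. It ran 3417 bp upstream and 12807 bp into the gene and covered 67.9 percent of the body, the only incomplete coverage among the members in that list. The summit was 1217 bp downstream of the start. In the replicated list the upstream part belonged to the promoter peak. In the single replicates that peak began at -0.797 and -0.542 kb, and separate peaks with signals of at most 5.22 lay upstream of it, reaching 3995 bp and 2796 bp from the start with gaps between them.

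Utf1 (chr7:139943856-139945112, plus strand) is the shortest member at 1257 bp, and its domain differed most between the replicates. The promoter signal was steady, at 57.0 in replicate 1, 54.9 in replicate 2 (56.0 ± 1.48, SD, n = 2) and 63.3 in the replicated list. The domain measured 17115 bp in the replicated list, 16046 bp in replicate 1 and 10238 bp in replicate 2. That ratio of 1.57 between replicates was above the 90th percentile over all genes, 1.497. The difference lay on the upstream side, where the domain reached 7219 bp in replicate 1 and 328 bp in replicate 2. The peaks upstream had signals of at most 6.04 in the replicated list. Replicate 2 also held peaks there, from -7.203 to -2.006 kb with signals of at most 5.64, but they were not joined. The gap before its promoter peak ran from -2006 to -328 bp. In replicate 1 that gap ran from -1294 to -347 bp and in the replicated list from -1336 to -392 bp, just under the joining limit. On the downstream side the reach was 8826 bp and 9909 bp. There the promoter peak split in replicate 1 into parts of 5438, 286 and 3261 bp with signals of 57.0, 3.18 and 33.0, while replicate 2 had 1 peak of 9013 bp.

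Zfp42 (chr8:43295067-43307009, minus strand) had the lowest promoter signal of the 5. It was 49.7 in replicate 1 and 43.4 in replicate 2 (46.5 ± 4.47, SD, n = 2), and 56.7 in the replicated list, rank 3855 of 14343. Its width was not low. The domain measured 16951 bp in the replicated list, 15606 bp in replicate 1 and 16806 bp in replicate 2, and in the replicated list it held the whole 11943 bp gene. In replicate 1 it held 94.2 percent of the gene. The summit was the farthest into the gene of the 5, at 1320 bp, and it lay at 1308 bp and 1320 bp in the replicates. A second peak inside the gene, 5614 bp wide at +5.69 to +11.3 kb, had a signal of 18.1 in the replicated list and 17.2 in replicate 1. In replicate 2 this second peak was split in 2 parts with signals of 14.2 and 12.5. The promoter peak was split there as well, 73 bp upstream of the start, and the upstream part had a signal of 11.7.

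**Figure D1:**
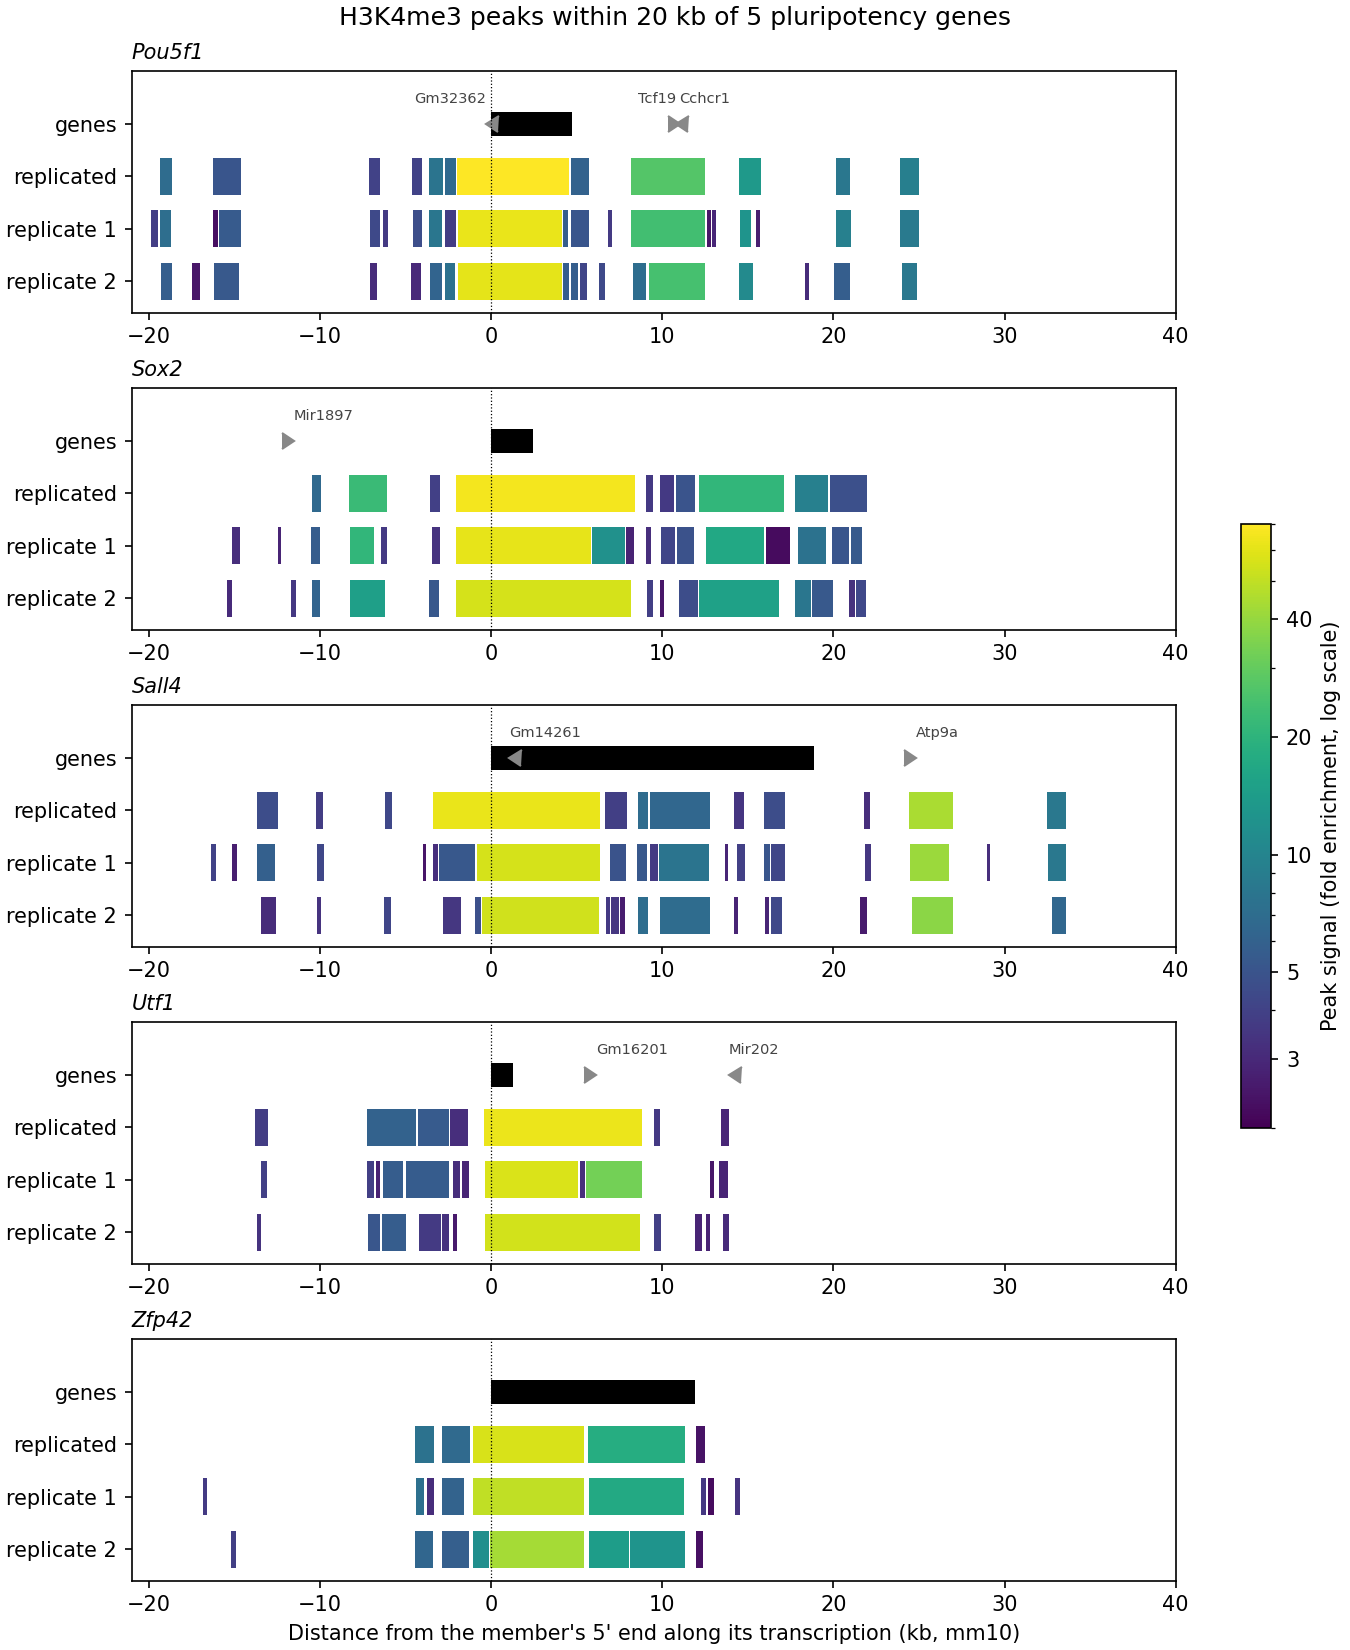
H3K4me3 peaks within 20 kb of each member on mm10, by distance from its 5′ end along its transcription (kb), in the replicated list and in each replicate's own list. Bar colour gives the deposited signal, read as fold enrichment, on a log scale, black boxes are the members' bodies, and grey triangles are 5′ ends of other genes, pointing along their transcription. The brightest bar crosses the start in all 5 genes, and weaker bars lie downstream of it in each.

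Ordered by the mean signal of the replicates, the members ran from Pou5f1 through Sox2, Utf1 and Sall4 to Zfp42. The replicate values of Pou5f1 and Sox2 overlapped, as did those of Sox2, Utf1 and Sall4. Zfp42 lay below the others in both replicates. By mm10 domain width Sox2 lay above the others in both replicates. The replicate values of Sall4, Utf1 and Zfp42 overlapped, and those of Pou5f1 fell within the range of Utf1. Signal and width thus ordered the members differently, with Pou5f1 first by signal and last by width in the replicated list.

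**Figure D2:**
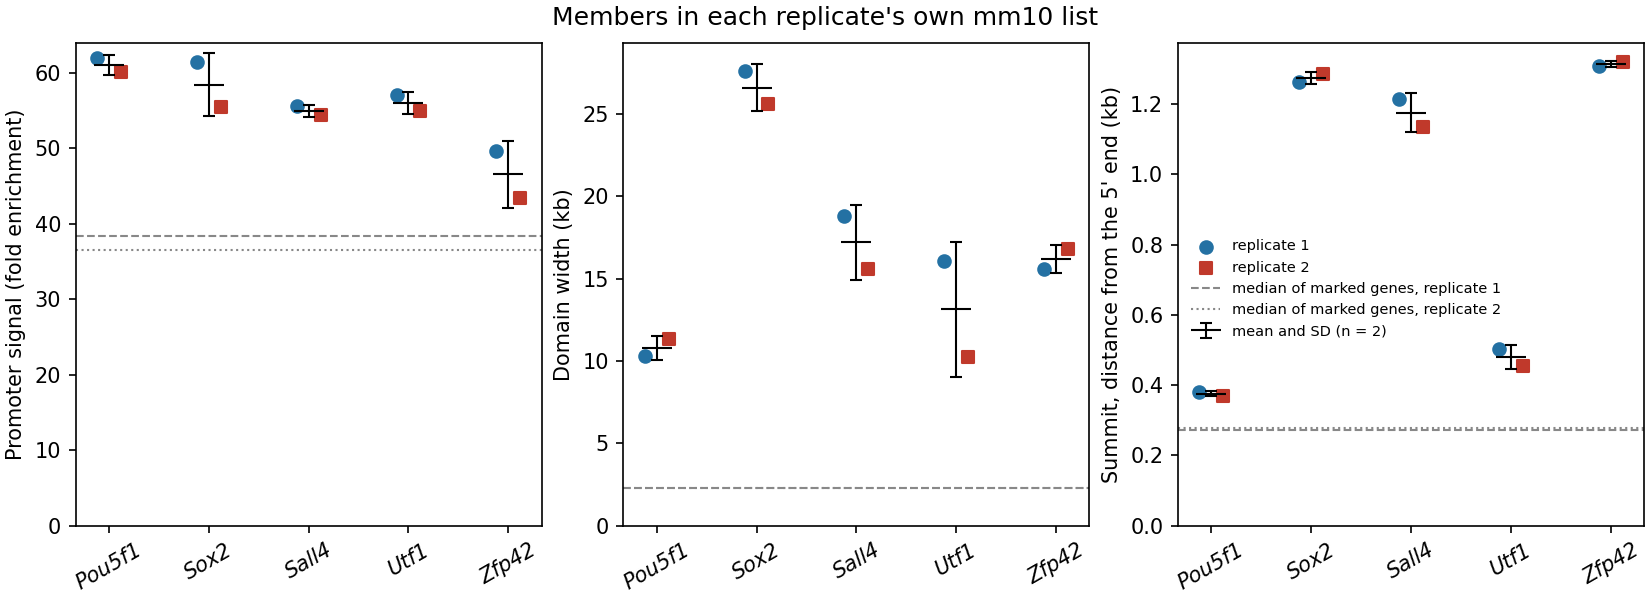
Promoter signal (fold enrichment), domain width (kb) and summit distance from the 5′ end (kb) of the members in each replicate's own mm10 list, with mean and SD (n = 2) and, as lines, the median of all marked genes in each replicate. All 5 members lie above the lines in all 3 measures, and the largest gap between replicates is the width of Utf1, 16046 bp against 10238 bp.

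Set beside all marked genes in the replicated list, the members had a median signal of 63.3 against 43.0 and a median domain width of 16951 bp against 2427 bp. Width set them further apart than signal. The narrowest member domain, 10355 bp, was above the 95th percentile of marked genes, 7804.9 bp, while the lowest member signal, 56.7, was below the 75th percentile, 57.7. A domain of at least 10 kb was found at 5 of 5 members and at 2.71 percent of marked genes, and a signal of at least 50 at 5 of 5 members and at 38.6 percent. Both together were found at 5 of 5 members and at 1.64 percent of marked genes, thresholds chosen with the values known. The width call rests on joining. Without it, the strongest promoter peak reached 10 kb at 1 of 5 members, Sox2, and at 0.244 percent of marked genes. In the replicated list the domains extended on both sides. The median reach of the members was 4441 bp upstream against 743 bp for all marked genes, and 12509 bp downstream against 1533 bp. Upstream it was 4358 bp against 692 bp in replicate 1 and 2796 bp against 697 bp in replicate 2. In replicate 2 Utf1, with 328 bp, lay below the median of marked genes.

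**Figure D3:**
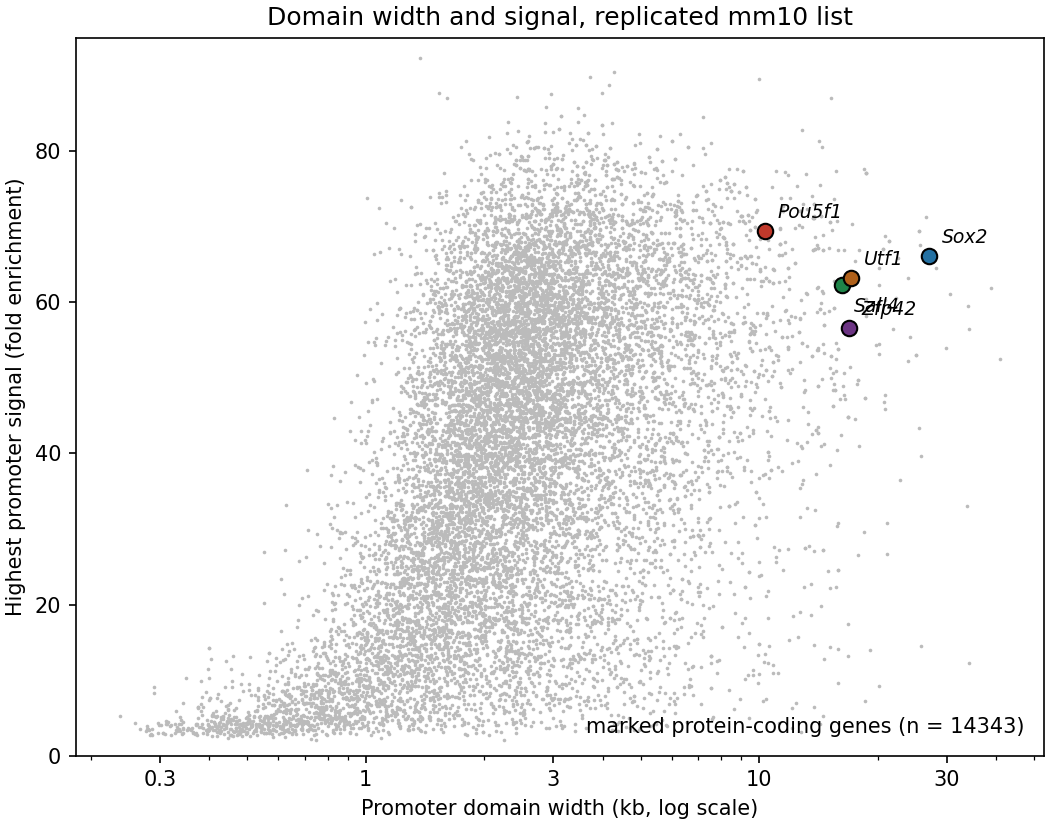
Highest promoter signal (fold enrichment) against promoter domain width (kb, log scale) for 14343 marked protein-coding genes (grey) and the 5 members in the replicated list. The members sit at the right edge, from 10.4 kb for Pou5f1 to 27.1 kb for Sox2, at signals between 56.7 and 69.4.

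The summit, the point of highest enrichment in a peak, was downstream of the 5′ end at 5 of 5 members and at 85 percent of marked genes. Its distance fell into 2 classes among the members. At Pou5f1 and Utf1 it was 382 bp and 462 bp, at the 65.7th and 73.2nd percentile of marked genes. At Sox2, Sall4 and Zfp42 it was 1266 bp, 1217 bp and 1320 bp, between the 94.8th and 95.7th percentile. The replicates placed the summit within 80 bp of each other at each member, and within 10 bp at Pou5f1. The whole gene body lay in the promoter domain for 4 of 5 members in the replicated list and for 4.34 percent of marked genes. Short genes are covered more easily, and among marked genes of 1 to 20 kb, the range that holds all 5 members, the share was 8.04 percent. Zfp42, at 11943 bp, was covered whole in replicate 2 and in the replicated list, where 0.36 percent of marked genes over 6 kb were.

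Within 20 kb of the members' bodies the replicated list held 46 peaks, 12 at Pou5f1, 10 at Sox2, 12 at Sall4, 7 at Utf1 and 5 at Zfp42. The median over marked genes was 5, which Zfp42 equalled. Most were weak, as were most peaks of that list. Of the 46, 35 had a signal under 10. The 38 that covered no 5′ end in the mm10 gene table had a median of 5.30. The median over all 62128 replicated peaks, those at gene starts included, was 5.32, and peaks covering no start were not taken separately. The single-replicate lists held more, 78 in replicate 1 and 68 in replicate 2, and the stretch of the replicated promoter peak held 2 or 3 peaks in 1 replicate at Sox2, Utf1 and Zfp42 and in both at Pou5f1 and Sall4. Peaks covered 44.6 percent of the window at Pou5f1, 59.4 percent at Sox2, 39.2 percent at Sall4, 40.1 percent at Utf1 and 29.6 percent at Zfp42, against a median of 8.81 percent for marked genes. The share at Zfp42 was at the 90.6th percentile and the others were between the 96.3rd and 99.7th. The window includes the gene body and so grows with gene length, for which these shares were not matched.

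Some of these peaks were shared with other genes. The promoter peak of Pou5f1 also covered the start of Gm32362, a long noncoding RNA gene transcribed the opposite way from -295 bp. The promoter peak of Sall4 covered the start of Gm14261, a noncoding gene on the opposite strand 1058 bp into Sall4. The start of the noncoding gene Gm16201, 6142 bp downstream of that of Utf1, lay in the Utf1 promoter peak in the replicated list, and in replicate 1 it lay in the separate part with a signal of 33.0. Tcf19 and Cchcr1, which start 10.8 and 11.02 kb downstream of the Pou5f1 start and are transcribed away from each other, shared a peak with a signal of 27.2 outside the Pou5f1 domain (23.7 and 24.6 in the replicates). Atp9a, a flippase gene that starts 24.8 kb from the Sall4 start, had its own peak with 44.7 (41.1 and 37.6 in the replicates). The microRNA gene Mir202, 13.9 kb from the Utf1 start, had a signal of 2.95, and Mir1897, at -11.5 kb from Sox2, had no peak in the replicated list. Zfp42 had no other gene start within 20 kb of its body. Starts of Sox2ot near Sox2 were read on mm9 only and are given below. Peaks over shared starts carry no strand, so the part of each gene in them cannot be told apart.

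On mm9 the authors deposited wider regions, with edges on a grid of 200 bp and another ratio, and these were read at every GENCODE vM1 transcript start of the members. The transcripts numbered 7 for Pou5f1, 3 for Sox2, 7 for Sall4, 2 for Utf1 and 1 for Zfp42. At each member a single region covered all of them in the series list and in the list of each replicate. A region covering a vM1 start was found for 68 percent of 22380 protein-coding genes in the series list, 67.2 percent in replicate 1 and 66.7 percent in replicate 2. Within 1 kb of a start the shares were 70.1, 69.3 and 68.7 percent, and 5 of 5 members had a region in each. The region of Pou5f1 was chr17:35639401-35650000 (mm9), 10.6 kb wide with a signal of 20.9, and it was 9.6 kb in replicate 1 and 9.2 kb in replicate 2. That of Sox2 was 14 kb wide with 19.4 in the series list, and 13.2 kb and 13.8 kb in the replicates. Sall4 had 17.6 kb with 13.7 in the series list, and 16.6 kb and 17.6 kb in the replicates. Its starts were spread over most of the region, from Sall4-006, 14.957 kb inside the upstream edge, to Sall4-007, 2.957 kb inside it. Utf1 had 16.4 kb with 12.7 in the series list, but 9.8 kb in each replicate, where it reached 0.887 kb upstream of the 5′-most start against 7.487 kb in the series list. Zfp42 had 17.6 kb with 14.4 in the series list, and 12.8 kb and 16.6 kb in the replicates.

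Widths and signals on mm9 gave different places to the members. Among 17225 regions at protein-coding starts, the 5 regions stood between the 97.6th and 99.6th percentile by width. Sox2, first by domain width on mm10, had a narrower region in the series list than Sall4, Zfp42 and Utf1. In both mm9 replicates Sall4 was again wider than Sox2, Utf1 was narrower, and Zfp42 lay on either side. By signal in the series list Pou5f1 stood at the 79th and Sox2 at the 74.3rd. Zfp42, Sall4 and Utf1 were at the 53.7th, 50.5th and 46.1st, near the middle. All 5 were above the median signal of regions of at least 10 kb at protein-coding starts, 10.6. In both mm9 replicates Utf1, in regions of 9.8 kb, lay above Sox2, with signals of 22.9 and 23.6 against 22.3 and 22.5. Zfp42, with 20.2 and 17.4, and Sall4, with 15.7 and 15.2, lay below Sox2 there. Among marked genes in the replicated mm10 list Zfp42, Sall4 and Utf1 stood at the 72.9th, 83rd and 84.7th. The lists differ in build, in how regions were called and in the ratio deposited, and the cause of the gap was not tested. The long noncoding gene Sox2ot, which surrounds Sox2 on the same strand, had starts in the same stretch. Its transcript Sox2ot-016 started 6.43 kb downstream of the Sox2 start inside the Sox2 region, and Sox2ot-004 started 15.2 kb downstream in a neighbouring region with a signal of 4.89.

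The members differed in the sequence under their domains, with Pou5f1 and Zfp42 the poorest in CpG. The mm9 region held 14.1 CpG per kb at Zfp42, 15.4 at Pou5f1, 23.1 at Utf1, 27.8 at Sall4 and 30.9 at Sox2, against a median of 31.7 over all regions at protein-coding starts and 21.6 over those of at least 10 kb. The vM1 promoters were classed by CpG content as high, intermediate or low. Pou5f1 was low, with an observed-to-expected CpG ratio of at most 0.371 in its 500 bp windows. Sall4 and Zfp42 were intermediate, and Sox2 and Utf1 were high. The classes are no ranking by ratio, whose maximum was 0.925 at Sall4, 0.839 at Utf1, 0.806 at Sox2 and 0.787 at Zfp42. At Sall4 and Zfp42 no window with a ratio over 0.75 also had over 55 percent GC. A region lay within 1 kb of the 5′ end for 26.1 percent of low-CpG genes, 86.4 percent of intermediate and 99.6 percent of high-CpG genes. The 2245 low-CpG genes with a region had a median width of 2200 bp and a median signal of 7.98, and Pou5f1 had 10600 bp and 20.9. Of those genes 62 had a wider region and 201 a stronger one. CpG islands (windows of 200 bp with over 50 percent GC and a ratio over 0.6) took up 2.10 percent of the Pou5f1 region, 223 bp. They took up 11.98 percent at Zfp42, 21.0 percent at Utf1, 25.7 percent at Sall4 and 31.1 percent at Sox2. The median over regions of at least 10 kb at protein-coding starts was 15.8 percent (n = 496).

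**Figure D4:**
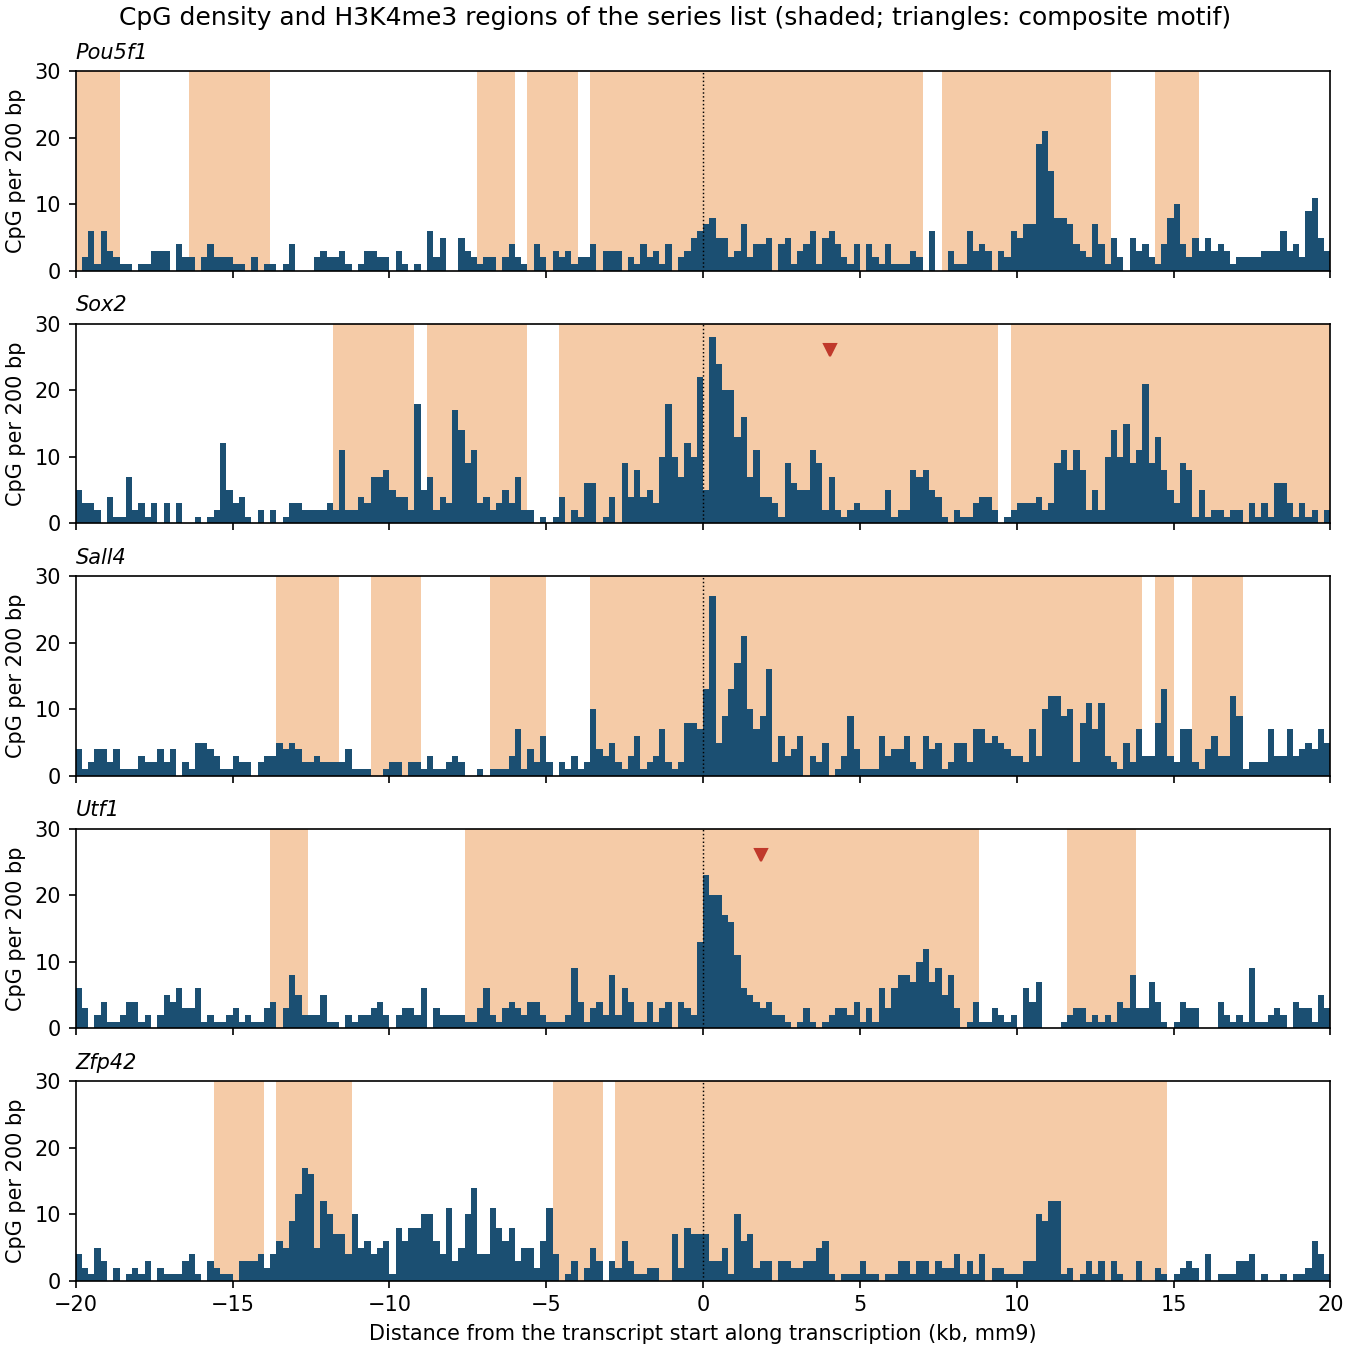
CpG dinucleotides per 200 bp (bars) within 20 kb of each member's start on mm9, with the series list's H3K4me3 regions shaded, by distance along transcription (kb), and triangles for the composite motif. At and just after the start the bars reach 8 at Pou5f1, and 10 at Zfp42, against 28 at Sox2, 27 at Sall4 and 23 at Utf1, and all 5 regions run on over sequence with few CpG.

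The composite element read by Oct4 and Sox2 together was searched in the same mm9 windows because known enhancers downstream of Sox2 and Utf1 carry such elements. The motif searched, a Sox element followed after 1 free base by a POU element, on either strand, occurred 1 time within 20 kb of the Sox2 start and 1 time within 20 kb of the Utf1 start, and in none of the windows of Pou5f1, Sall4 and Zfp42. The matches, in capitals with 7 bases on either side, read on the strand of the motif:
Sox2: gggcagcCATTGTGATGCatatagg
Utf1: gagccgtCATTGTTATGCtagtgaa
The first lay at chr3:34552971-34552981 (mm9, plus strand), 4049 bp downstream of the Sox2 start, and the second at chr7:147131584-147131594 (mm9, minus strand), 1834 bp downstream of the Utf1 start. Both were inside the member's own H3K4me3 region. Because known enhancers prompted the search, the matches at Sox2 and Utf1 are no independent result. Windows of 10 kb on either side of a 5′ end held a match at 3.13 percent of 22365 protein-coding genes. These windows were narrower than the 20 kb searched at the members, though both matches lay within 10 kb. The fixed letters leave out variants of the element. The absence of these letters elsewhere says nothing about binding there.

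Genes listed as partners and targets of the members in stem cells were marked at 28 of 30, against 66.6 percent of all genes. Their median signal was 44.7 and their median domain 6866.5 bp, between the members and all marked genes in width and close to all marked genes in signal. The highest signals were at Tcf3 (73.6), which encodes a basic helix-loop-helix factor, Stat3 (71.6), which carries the LIF signal, and Nacc1 (70.02), which encodes a BTB-domain protein. Tcf3 was listed beside the separate gene Tcf7l1 (50.3), and its place in the network was not tested. The widest domains were at Tdgf1, a Nodal co-receptor gene (15.7 kb with a signal of 40.4), and Fgf4, a growth factor gene that Oct4 and Sox2 are known to control (15.1 kb, 58.8). Of the 28 marked genes 2 had both a signal of at least 50 and a domain of at least 10 kb. Esrrb and Nr5a2, both nuclear receptor genes, had no peak at their 5′ end, but at another RefSeq start their signals were 18.8 and 45.1.

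Relatives of the members by protein family were marked at 20 of 22 genes, against 66.6 percent of all genes and 28 of 30 network genes. Being marked thus did not set the relatives apart from the network genes. The relatives' signal, 21.6 at the median, and their domain width, 3427.5 bp at the median, lay below those of the members. The other POU genes were marked at 11 of 13, with signals from 9.35 to 52.6. Pou5f1, at 69.4, lay above all of them, and the closest was Pou2f1, which encodes the broadly expressed Oct1. Pou1f1, the pituitary POU factor gene, had no peak. The 4 SoxB genes related to Sox2 had signals from 9.20 to 32.9 and no domain over 3.95 kb. Among the 3 Sall genes, Sall1 came closest to Sall4, with 50.9 and the widest domain of the relatives, 10.9 kb. Sall2 had 9.92 at its 5′ end but 51.0 at another RefSeq start. Yy1, with 56.4 and 5.97 kb, lay near Zfp42 in signal and below it in width, and its relative Yy2 had 19.1. The other wide domain was that of Pou3f2, 5.47 kb.

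**Figure D5:**
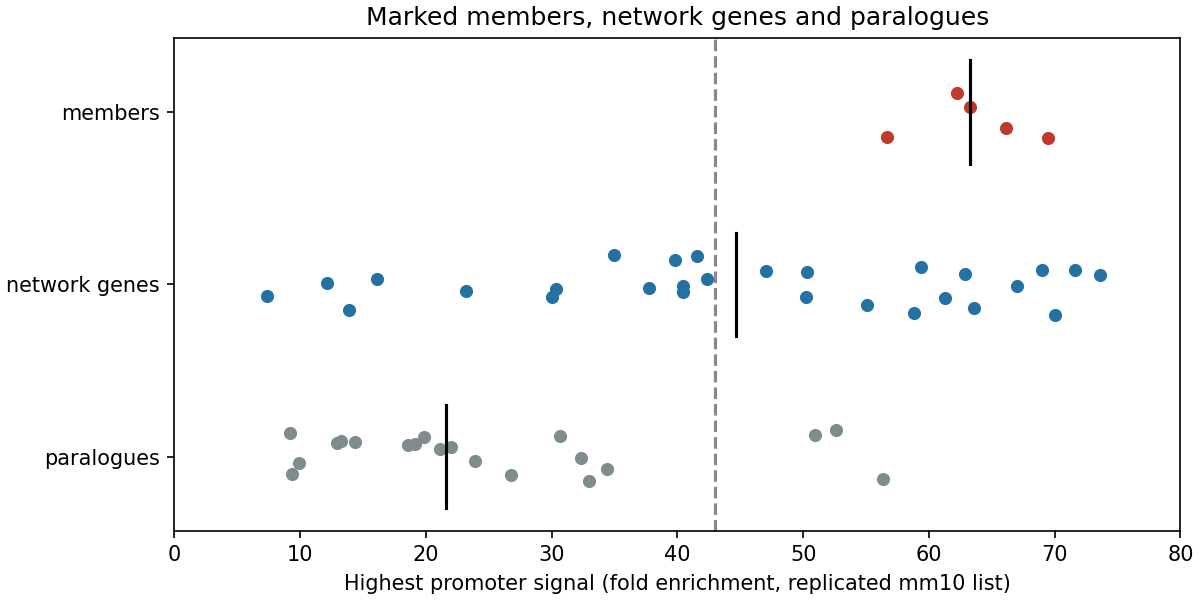
Highest promoter signal (fold enrichment, replicated list) of the marked members, network genes and family relatives, 1 point per gene with vertical scatter for legibility only. Black lines are medians (63.3, 44.7 and 21.6), and the dashes give the value for all marked genes, 43.0.

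The genes with the most similar marking were found for each member over 6 values, the log2 signal and log2 domain width in the replicated list and in each replicate list, among the 14200 genes marked in all 3. Nearest to Pou5f1 were Eif5a (distance 0.16), Rps15a (0.20) and Mlec (0.20), the first 2 of which encode parts of the translation machinery. Nearest to Sox2 were the glucose transporter gene Slc2a1 (0.13), Klf9 (0.19) and Mybl2 (0.27). Sall4 was nearest to Zbtb7a (0.22), Rest (0.26) and Amotl2 (0.27), and Utf1 to Zfp280b (0.28), Fgf4 (0.34) and Jade1 (0.35). Zfp42 was nearest to Slc29a1 and Mymx (both 0.20), which share a domain, and Jup (0.30). The median distance of all genes was between 4.12 for Pou5f1 and 6.28 for Sox2, and no member was among the nearest 3 of another.

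The labelled cell type was read from other markers by the same promoter rule, under which 66.6 percent of all genes were marked. Of 8 stem cell markers, 7 had a promoter peak, and the eighth was Esrrb. Their signals ran from 16.1 to 63.6 with a median of 55.1, a range that overlapped those of the other marker sets. Of 10 fibroblast markers, which feeder cells would carry, 5 had one. Fn1 reached 61.7, and the others were Thy1 (23.4), Col1a1 (15.7), Col1a2 (13.7) and Pdgfrb (5.75), while Col3a1, Acta2, Postn, Lum and Dcn had none. Primitive endoderm markers were marked at 4 of 6 with signals from 9.49 to 18.1, and trophectoderm markers at 3 of 4 with signals from 10.2 to 37.4. The part of other cells in the members' peaks was not tested.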

How the data were processed

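H3K4me3 ChIP-seq peak lists of 2 biological replicates were used, 4 on mm10 and 3 on mm9. The aligner, peak caller, settings and read depth are named by no source used here, so no interval for counting error could be set, and intervals between replicates rest on 2 values. In the mm10 lists the authors deposited for each peak a signal value, taken from the narrowPeak format to be a fold enrichment (a ratio whose background is not stated), −log10 p-values and −log10 q-values, a display score and a summit position. In the mm9 lists the authors deposited a ratio with no stated denominator and the p-value and q-value themselves. Per the deposited file descriptions, each replicate's mm10 list came from its own alignments, and the replicated list was derived from these and a pooled list. All 62128 replicated peaks had the edges and signal of a pooled peak, so their values are those of the pooled data.

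Of 21900 protein-coding genes in the RefSeq GRCm38.p6 table, 21536 had a strand, 17492 from the RefSeq promoter table and 4044 from GENCODE vM1, and 364 were left out. A gene was marked when a peak overlapped the window from 1 kb before to 1 kb after its 5′ end. Its signal was the highest of such a peak, and its domain the widest union of peaks less than 1 kb apart. CpG classes and islands and the composite motif came from the mm9 genome with mm9 starts, and no coordinate was moved between builds. The class windows of 500 bp ran from 1300 bp upstream to 200 bp downstream of the start. High-CpG promoters had a window with a ratio over 0.75 and over 55 percent GC, and low-CpG promoters none with a ratio over 0.48. Coordinates count from 1.

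With 1 group there was nothing to test, and values are descriptions. Members and lists were chosen with earlier results of these data known. Named genes were the members, genes starting in their domains or within 20 kb, the 3 strongest, 3 widest and all unmarked genes of the network and family lists, and the 3 nearest genes of each member, and a few genes taken by this rule are left unreported. Alternatives were other lists, a q-value limit, promoter windows, joining distances and neighbourhoods. Scripts ran in Python 3.11.15 with NumPy 2.4.6, pandas 2.3.3 and matplotlib 3.10.9, and were tested on simulated data.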

Additional observations from a re-analysis of the deposited data

How the results depend on the processing

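The number of members with a promoter peak stayed at 5 in all alternatives tried, as did the number with an mm9 region at a start. Network genes varied from 28 to 30 and family relatives stayed at 20. Of 50 alternative values, 38 moved by less than the spread between replicates or, for counts, by less than 1.5 times, and 12 moved by more. The median domain width of 16951 bp became 15602 to 16046 bp in the single-replicate lists, 18194 bp in the pooled list, 16225 bp with q-values under 1e-05, 9217 bp without joining and 22875 bp when gaps under 3 kb were joined. The last of these and the unjoined width show that the width depends on the joining distance. The number of members with a domain of at least 10 kb, 5, became 1 without joining, an alternative added after seeing the data. The median signal of 63.3 was 54.9 to 57.0 in the single-replicate lists. The 46 peaks within 20 kb became 68 to 78 in the single-replicate lists, 73 in the pooled list and 76 within 50 kb. Use of any RefSeq start was added after seeing the data and changed no member's value. No paired analysis was possible because both replicates belong to 1 group. An unmarked promoter had no peak past the authors' threshold, and read depth, which could limit weak peaks, is unknown.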

Other observations

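Among the network genes marked in both replicates, the signals differed most at Nanog, a homeobox gene of the same network named here after its values were seen. Its promoter signal was 23.9 in replicate 1 and 47.9 in replicate 2, with 37.7 and a domain of 11.4 kb in the replicated list. Gene bodies held whole in the promoter domain occurred at 5 of the 28 marked network genes and at 1 of the 20 marked family relatives. The share was 4.34 percent of all marked genes and 8.04 percent of those of 1 to 20 kb, and the lists were not matched for gene length. The network genes held whole included Klf2, Dppa5a, Fgf4 and Lefty1, with domains from 5.45 kb at Lefty1 to 15.1 kb at Fgf4. The relative was Pou4f3 with 2.46 kb. Dppa3 and Dppa5a, germline and stem cell genes, had low signals of 7.33 and 16.1. Around Pou5f1, 3 peaks downstream of the Tcf19 and Cchcr1 starts, with signals from 8.20 to 13.5, covered no gene 5′ end.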
